A study of Mus musculus with 4 samples.

Results

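The proteasome subunit genes of sorted Dll1-mCherry+ mouse mammary tumor cells were described here, with the interferon-inducible immunoproteasome set against the constitutive enzyme. Members were the protein-coding rows of the count table whose symbol is Psma, Psmb, Psmc, Psmd or Psme followed by a number only. The rule found 43 of the 54532 genes in the table. Of these, 5 genes (Psmb8, Psmb9, Psmb10, Psme1 and Psme2) formed the immunoproteasome set and the other 38 the constitutive set. The second label covers all remaining members. They include the assembly chaperones Psmd5, Psmd9 and Psmd10, the activators Psme3 and Psme4, and the tissue-restricted Psma8 and Psmb11. Of the 43 members, 41 passed the filter on low counts.

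The irradiated group held 2 libraries, from tumors given targeted radiation, which the design places at day 30. The unirradiated group held 2 libraries from tumors without radiation. All tumors were raised on the C57BL/6 strain by MFP injection of PyMT-Dll1+ cells, and every library carries the source label "MMTV-PyMT; Dll1 mcherry+", that is, polyoma middle T antigen driven by the MMTV promoter, which is active in mammary epithelium, with mCherry marking expression of Dll1, a Notch ligand. Digested tumors were sorted with antibodies to CD45, CD31 and TER119, which mark blood, endothelial and red cells, and mCherry+ cells were then taken. The sources give neither age nor radiation dose, and do not tell whether the pair of libraries in a group stems from different mice, so a p-value here reflects the variation among these libraries alone, possibly technical. Sample codes in the titles differ between the groups in the same way as radiation, so any handling tied to those codes cannot be told apart from it.

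Background on the complex helps to read the values. The proteasome is the protease that degrades ubiquitin-tagged proteins; its core particle stacks alpha rings, which gate the entry, on beta rings, in which 3 kinds of subunit are catalytic. Psmb5, Psmb6 and Psmb7 encode the constitutive catalytic subunits, and interferon gamma induces Psmb8, Psmb9 and Psmb10, whose products take the places of Psmb5, Psmb6 and Psmb7 in newly built particles and change which peptides are cut for MHC class I. Psme1 and Psme2 encode an activator cap that interferon gamma also induces, whereas Psmc and Psmd genes encode the regulatory particle, which recognises, unfolds and feeds in tagged proteins.

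Summed counts were 19931303 and 18903631 in irradiated 1 and irradiated 2 and 20817997 and 16811888 in unirradiated 1 and unirradiated 2, and member genes took between 0.357% and 0.416% of them. All 8 epithelial markers were detected in every library, at summed levels of 10380.0 and 8175 CPM in irradiated 1 and 2 against 9558 and 9227 CPM in the unirradiated ones. CPM are counts scaled by library size and its TMM factor. Blood cell, endothelial and fibroblast markers were highest in irradiated 2 and are given beside the results below.

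Among the 5 immunoproteasome genes, Psmb8 and Psmb9 were higher in both irradiated libraries than in either unirradiated one, as were 20.3% of all tested genes, and both lie in a cluster of class I processing genes on chromosome 17. Their start regions are shown because these genes carried the largest differences of the group, with the starts of Psmb5 and Psmb6, their constitutive partners, for comparison. Psmb8 (ENSMUSG00000024338) lies at chr17:34197721-34201454 on the plus strand of mm10, and Psmb9 (ENSMUSG00000096727) at chr17:34181988-34187764 on the minus strand. Tap1, the peptide transporter gene, stands between them, and the RefSeq starts of Psmb9 and Tap1 point away from each other across 225 bases. RefSeq places the Psmb8 start within the span that the count table gives for the gene. Sequences are RefSeq's on GRCm38.p6, 5′ to 3′ on the strand of the gene. They cover the 150 bases before the start of Psmb8 (chr17:34198045-34198194, plus strand), Psmb5 (chr14:54617996-54618145, minus strand) and Psmb6 (chr11:70525207-70525356, plus strand), and the whole interval between Psmb9 and Tap1 (chr17:34187331-34187555, minus strand). Capitals mark a gamma-activated site pattern, TTCNNNGAA, in Psmb8, and the core of the antioxidant response element, TGACNNNGC, in Psmb5 and Psmb6; the Psmb9 stretch held no gamma-activated site pattern. The marked pattern begins 97 bases before the start of Psmb8, 47 before that of Psmb5 and 9 before that of Psmb6, and none of these stretches holds 2 of the patterns searched.
Psmb8: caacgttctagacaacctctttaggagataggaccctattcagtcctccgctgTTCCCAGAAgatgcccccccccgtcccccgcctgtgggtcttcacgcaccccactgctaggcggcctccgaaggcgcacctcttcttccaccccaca
Psmb9: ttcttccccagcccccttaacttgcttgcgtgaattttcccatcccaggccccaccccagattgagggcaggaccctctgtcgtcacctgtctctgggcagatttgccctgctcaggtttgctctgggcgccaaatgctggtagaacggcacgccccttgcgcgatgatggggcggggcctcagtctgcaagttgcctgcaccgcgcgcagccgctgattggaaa
Psmb5: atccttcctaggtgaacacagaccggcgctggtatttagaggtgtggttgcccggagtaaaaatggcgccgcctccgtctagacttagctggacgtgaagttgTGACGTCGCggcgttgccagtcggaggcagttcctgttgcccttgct
Psmb6: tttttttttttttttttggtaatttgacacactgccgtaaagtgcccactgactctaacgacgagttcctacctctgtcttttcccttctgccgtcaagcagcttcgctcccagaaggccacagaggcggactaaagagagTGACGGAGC

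RefSeq windows of 300 bases, 250 before and 50 after a start, were found for 36 of the 43 members, and 3 patterns were searched on both strands. The gamma-activated site pattern was in windows of 1 of 5 immunoproteasome genes (Psmb8) and 1 of 31 constitutive genes (Psmd2), against 9.55% of all 27025 genes with a window. The core of the interferon-stimulated response element, GAAA, any 2 bases, then GAAA, was in 1 of 5 (Psme1) and 3 of 31 (Psmb3, Psmd4 and Psmd9), against 3.99% of all genes. The antioxidant element core was in 0 of 5 and 6 of 31 (Psmb5, Psmb6, Psmc6, Psmd9, Psmd12 and Psme4), against 14% of all genes. A match is a description of letters in a window, not evidence of binding.

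The comparison asked how the cells of irradiated tumors differed from those of unirradiated ones. Psmb8, which encodes the induced counterpart of Psmb5 and whose printed start region holds the gamma-activated site pattern, was measured at 109 and 109 CPM in irradiated 1 and 2, against 81.7 and 81.2 CPM in unirradiated 1 and 2. The groups did not overlap, and the libraries of each group lay almost on top of each other. The log2 fold change was 0.42 (SE 0.0955), a 1.33-fold difference, with an edgeR adjusted p of 0.489. Psmb9, the induced counterpart of Psmb6, whose printed interval holds no such pattern, was at 39.5 and 40.1 CPM in irradiated 1 and 2, against 29.7 and 27.1 CPM in unirradiated 1 and 2. Again both irradiated libraries were the higher ones, with a log2 fold change of 0.49 (SE 0.121), 1.40-fold, and an edgeR adjusted p of 0.489. Neither gene passed the test over all genes. By DESeq2 their adjusted p were 0.119 for Psmb8 and 0.241 for Psmb9, and by limma-voom 0.789 for each.

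The edgeR quasi-likelihood test called 0% of the 15993 tested genes higher and 0% lower at an adjusted p of 0.05, so no member could be told from this background by that test. DESeq2 called 2.76% of all tested genes higher and 0.306% lower, and 0 members in either direction. With no adjustment, an edgeR p under 0.05 was reached by 2 members on the higher side, Psmb8 and Psmb9, and by 0 on the lower side, against 6.82% and 2.44% of all tested genes. Psmb8 ranked at 202 and Psmb9 at 307 of the 15993 genes ordered by p.

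The other 3 genes of the immunoproteasome set overlapped between the groups. Psmb10, the induced counterpart of Psmb7 (ENSMUSG00000031897, chr8:105935735-105938444), had 40.6 and 55.7 CPM in irradiated 1 and 2, against 46.1 and 40.2 CPM in the unirradiated libraries. Only irradiated 2 stood above both unirradiated libraries; the log2 fold change of 0.16 (SE 0.187) had an edgeR adjusted p of 0.868, and without irradiated 2 the log2 fold change was -0.11. Psme1, which encodes the alpha chain of the inducible activator, was at 147 and 166 CPM in irradiated 1 and 2, against 157 and 139.6 CPM in unirradiated 1 and 2. Psme2, which encodes its beta chain, was at 82.6 and 101 CPM in irradiated tumors, against 91.4 and 82.7 CPM in unirradiated tumors. For both, irradiated 2 was highest and irradiated 1 lay near the unirradiated libraries (log2 fold changes of 0.0783, SE 0.126, and 0.0794, SE 0.141; edgeR adjusted p of 0.904 and 0.912). Without irradiated 2 these log2 fold changes were -0.0277 and -0.0912. Psme1 and Psme2 lie 5911 bases apart on chromosome 14, with Emc9 between them. Emc9, which overlaps the end of Psme1 on the other strand, was at 4.69 and 8.42 CPM in irradiated 1 and 2, against 8.37 and 7.90 CPM in unirradiated 1 and 2. The ratio of Psme1 to Psme2 in counts per kilobase was 1.42 and 1.31 in irradiated 1 and 2 against 1.37 and 1.35 in unirradiated 1 and 2.

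**Figure D1:**
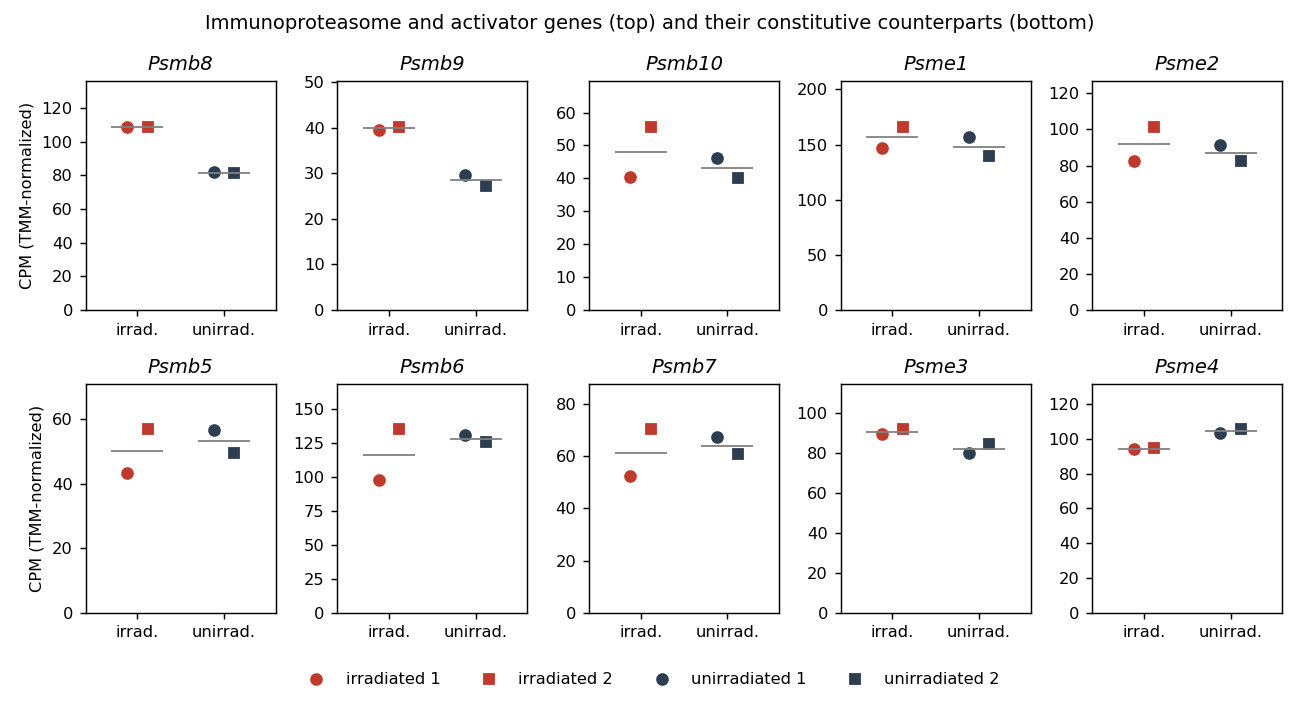
TMM-normalized CPM of the immunoproteasome and activator genes (top row) and of constitutive counterparts (bottom row) in the 2 irradiated and 2 unirradiated libraries; each point is a library and each grey line a group mean. Psmb8 and Psmb9 separate the groups, at 109 and 109 CPM in the irradiated pair, against 81.7 and 81.2 CPM in the unirradiated pair for Psmb8, while Psmb10, Psme1, Psme2, Psmb5, Psmb6 and Psmb7 overlap.

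The constitutive partners of the 3 induced catalytic genes showed another pattern, shared among them. Psmb5, the constitutive chymotrypsin-like subunit gene, was at 43.5 and 56.9 CPM in irradiated 1 and 2 against 56.8 and 49.7 CPM in unirradiated 1 and 2. Psmb6, which encodes the caspase-like subunit, was at 98.3 and 135 CPM in irradiated 1 and 2, against 131 and 126 CPM in unirradiated 1 and 2. Psmb7, which encodes the trypsin-like subunit, was at 52.5 and 70.2 CPM in irradiated tumors, against 67.4 and 60.6 CPM in unirradiated tumors. In all 3, irradiated 1 was the lowest library and irradiated 2 the highest, so the groups overlapped, with log2 fold changes of -0.0855 (SE 0.167), -0.14 (SE 0.176) and -0.063 (SE 0.17) and edgeR adjusted p from 0.874 to 0.949. Without irradiated 1 the 3 log2 fold changes were 0.0779, 0.058 and 0.115.

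The ratio of an induced subunit to its partner, taken within a library from counts per kilobase, does not depend on library scaling. Psmb8 over Psmb5 was 0.820 in irradiated 1 and 0.628 in irradiated 2, against 0.473 and 0.537 in the unirradiated libraries. Psmb9 over Psmb6 was 0.206 and 0.152 in irradiated 1 and 2, against 0.116 and 0.110 in unirradiated 1 and 2. Psmb10 over Psmb7 was 1.55 and 1.59 in irradiated tumors, against 1.37 and 1.33 in unirradiated tumors. All 3 ratios were higher in both irradiated libraries than in either unirradiated one, but no share over other gene pairs was computed for comparison. The activator ratios did not separate the groups. For Psme1 over Psme3 and Psme2 over Psme3 the libraries overlapped, with log2 differences of the group means of -0.0659 and -0.0702. On the log2 scale the differences of the group means were 0.51 for Psmb8 over Psmb5, 0.65 for Psmb9 over Psmb6 and 0.22 for Psmb10 over Psmb7, with pooled SDs of 0.213, 0.223 and 0.0281 (n = 2 each). The denominators were low in irradiated 1, where the log2 CPM difference from the unirradiated mean was -0.29 for Psmb5, -0.39 for Psmb6 and -0.28 for Psmb7, so a ratio alone does not show that the induced gene changed. For Psmb10, whose own level overlapped between groups, numerator and denominator both lay below the unirradiated mean in irradiated 1 and above it in irradiated 2. Leaving out any 1 library moved the 3 differences of the catalytic pairs within 0.32 to 0.70, 0.43 to 0.87 and 0.20 to 0.24. As a share of the summed TPM of the 6 catalytic genes (TPM are counts per kilobase, scaled to the same sum in every library), the induced ones made up 39.0% and 34.8% in irradiated 1 and 2 against 29.8% and 30.2% in unirradiated 1 and 2. No test was run on these ratios, since an exact permutation of 2 against 2 libraries gives no p below 0.333.

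**Figure D2:**
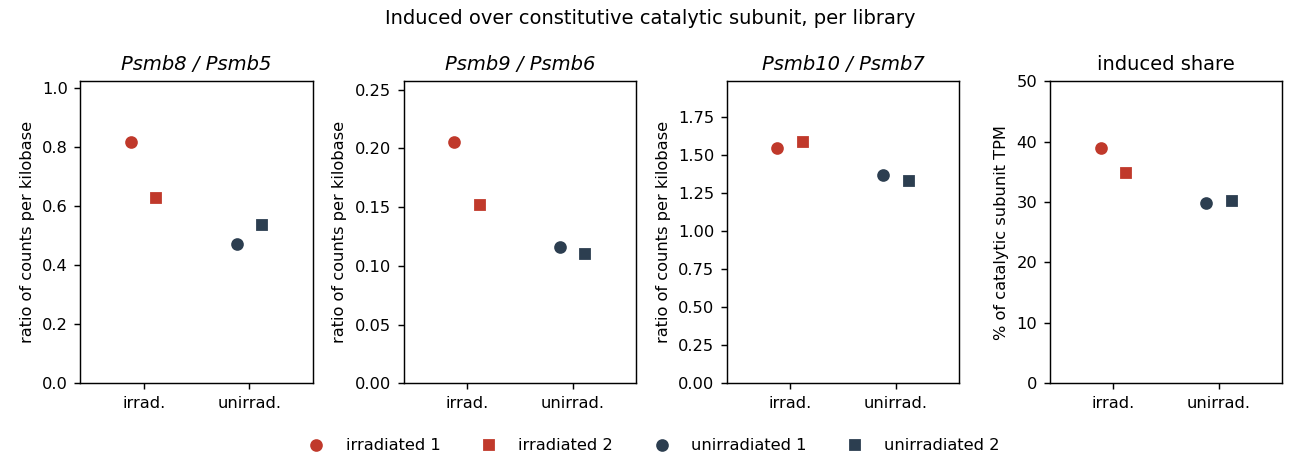
Ratio of counts per kilobase of each induced catalytic subunit gene to its constitutive partner, and the share of the induced genes in the summed TPM of the 6 catalytic genes, in each of the 4 libraries. Psmb8 over Psmb5 was 0.820 and 0.628 in the irradiated libraries against 0.473 and 0.537 in the unirradiated ones, and in each panel both irradiated points lie above both unirradiated points.

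Levels between members were compared as TPM. In the irradiated libraries the tested members ran from 11.1 TPM for Psmd9 to 216 TPM for Psma6, with a median of 97.1 TPM. In the unirradiated libraries they lay between 12.2 TPM for Psmd9 and 239 TPM for Psma6, with a median of 101 TPM against 13.1 TPM over all tested genes. Psmb9 was the lowest of the catalytic genes, at 30.8 TPM in irradiated libraries and 23.5 TPM in unirradiated ones, and Psmb6 the highest, at 176 TPM in irradiated and 208 TPM in unirradiated libraries. Psmb8 and Psmb10 lay between them, at 112 and 79.7 TPM in irradiated libraries against 90.0 and 76.4 TPM in unirradiated ones. The activator genes were the most abundant of the inducible set, with Psme1 at 200.3 TPM in irradiated and 203 TPM in unirradiated libraries, and Psme2 at 147 TPM in irradiated and 149 TPM in unirradiated libraries.

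Copies and overlaps limit some of these levels. In 10 of the 43 members over 10% of the 50-base words also occur in transcripts of other genes. Of the 50-base words in Psmb5 transcripts 54.1% also occur in transcripts of other genes, mainly the copy Gm3375, so reads that fit both may have been left out or split and the Psmb5 level may be understated; Gm3375 itself held 12 and 13 counts in the irradiated libraries, against 16 and 9 in the unirradiated ones. Psma5 shares 49.96% of its words with other transcripts, mainly those of Gm8394, and Psme2 shares 28.3% with Psme2b, which was at 4.14 and 5.70 CPM in the irradiated pair, against 4.23 and 3.66 CPM in the unirradiated pair. The kit does not keep strand, and Psmb8 shares 14.7% of its exon bases with the antisense gene Gm20496, which held 19 and 18 counts in the irradiated libraries, against 8 and 5 in the unirradiated ones, while Psmb9 shares 5.79% with Tap1. Psmb7, the denominator of the Psmb10 ratio, shares 11.8% of its exon bases with Nek6 on the opposite strand. Psmb3 and Psmd2 each share 17.8% of their words with other transcripts. Psmd9, the tested member with the lowest TPM, shares 25.5% of its exon bases with the antisense gene Gm26745, which held 0 counts in every library.

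Genes of the constitutive set were nearly level between the groups. Most lay below the unirradiated mean in irradiated 1 and above it in irradiated 2. Of 36 tested, 1 lay above in both irradiated libraries (Psme3) and 4 below (Psmd5, Psmd7, Psmd12 and Psme4), against 20.3% and 20.0% of all tested genes, and 31 overlapped. In the immunoproteasome set 2 lay above and 0 below of 5; against the unirradiated mean, 3 of 5 were lower in irradiated 1 and 5 of 5 higher in irradiated 2. The median log2 fold change was -0.0465 over the constitutive genes and 0.16 over the 5 immunoproteasome genes, against 0.00396 over all tested genes. In irradiated 1, 30 of 36 constitutive genes lay below the unirradiated mean, and in irradiated 2, 29 of 36 lay above it; over all tested genes these shares were 50.4% and 50.6%. Below in irradiated 1 and above in irradiated 2 were 25 of 36, or 69.4%, against 22.5% of all tested genes. Without irradiated 1 the constitutive median was 0.11, and without unirradiated 1 it was 0.00462. The immunoproteasome median was 0.35 without irradiated 1, -0.0277 without irradiated 2, 0.25 without unirradiated 1 and 0.0499 without unirradiated 2. The non-overlap counts also depended on the libraries. Without irradiated 1, 26 constitutive genes lay above and 6 below, against 40.3% and 39.4% of all tested genes. Without irradiated 2, 3 lay above and 28 below, against 41.1% and 42.7%. Without unirradiated 1 these counts were 5 and 4, against 28.5% and 28.9%, and without unirradiated 2 they were 2 and 8, against 29.7% and 30.1%. Of the 5 immunoproteasome genes, 5 lay above without irradiated 1, 4 without unirradiated 1, and 2 without irradiated 2 or without unirradiated 2.

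**Figure D3:**
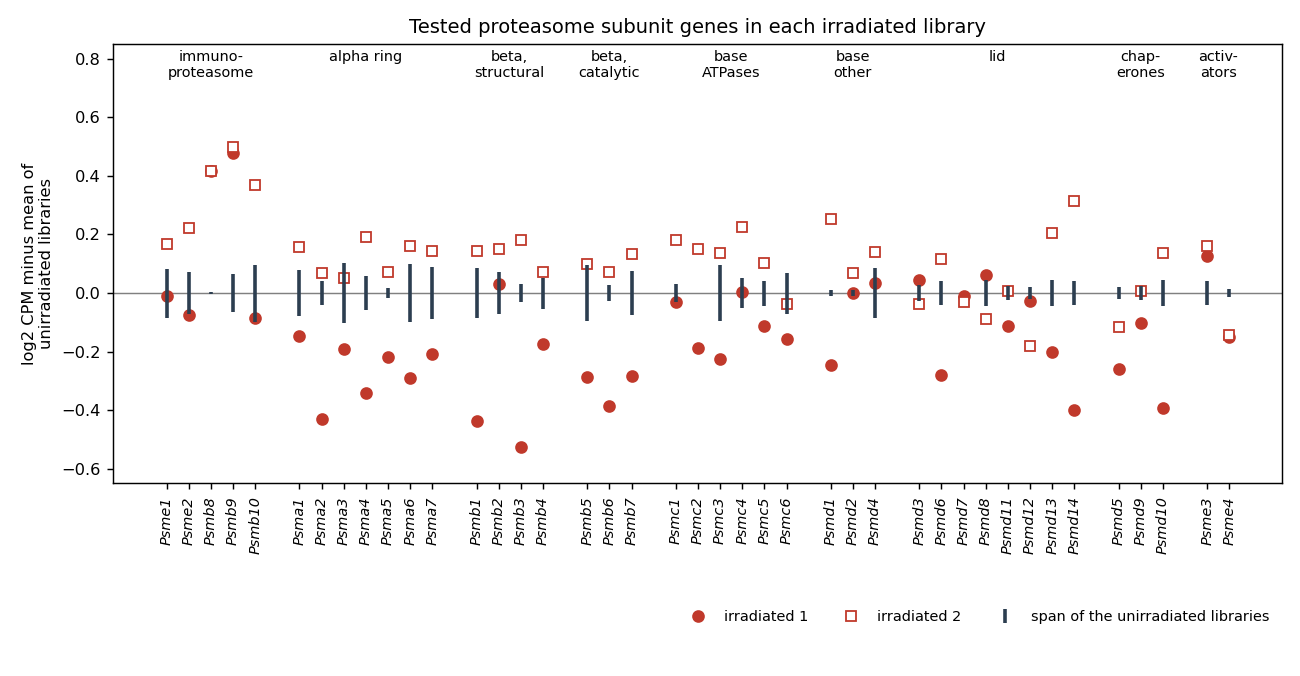
Log2 CPM of the 41 tested members in irradiated 1 (filled circles) and irradiated 2 (open squares) minus the mean of the unirradiated libraries, ordered by role; dark bars span the 2 unirradiated libraries. Psmb8 and Psmb9 show nearly equal values in both irradiated libraries (0.42 and 0.42 for Psmb8), whereas the core particle genes lie below 0 in irradiated 1, with 1 exception (Psmb2), and above 0 in irradiated 2.

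The split between the irradiated libraries was widest in the core particle. Over its 14 constitutive genes the median log2 difference from the unirradiated mean was -0.29 for irradiated 1 and 0.14 for irradiated 2. Irradiated 1 was the lower of the pair in 14 of 14, against 54.5% of all tested genes and 5 of 5 immunoproteasome genes. The median absolute log2 difference between the irradiated libraries was 0.40 over the 14 core particle genes and 0.33 over all tested genes. In the alpha ring, which gates the core, Psma2 was at 73.0 and 103 CPM in irradiated 1 and 2 against 101 and 95.7 CPM in unirradiated 1 and 2. Psma3 was at 90.9 and 107 CPM in irradiated 1 and 2, against 111 and 96.8 CPM in unirradiated 1 and 2. Both overlapped between groups, as did the other 5 alpha genes, and the 7 log2 fold changes ran from -0.16 to 0.0115. Among structural beta genes, which have no catalytic site, Psmb1 was at 87.0 and 129.9 CPM in irradiated tumors, against 125 and 111 CPM in unirradiated tumors. Psmb2, with a log2 fold change of 0.0888, was at 62.9 and 68.3 CPM in the irradiated pair, against 64.8 and 58.6 CPM in the unirradiated pair. Psmb3, chosen after its values were seen as the member with the lowest log2 difference from the unirradiated mean in irradiated 1 (-0.52), was at 52.8 and 86.1 CPM in irradiated 1 and 2, against 77.6 and 74.4 CPM in unirradiated 1 and 2.

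Over the 17 regulatory particle genes the medians were -0.11 for irradiated 1 and 0.12 for irradiated 2, the median absolute difference between these libraries was 0.21, and log2 fold changes ran from -0.10 to 0.12. Among the ATPases of the base, which unfold substrates, Psmc4 had 78.5 and 91.7 CPM in irradiated 1 and 2, against 81.3 and 75.6 CPM in unirradiated 1 and 2. Psmc6 was at 80.8 and 87.8 CPM in irradiated tumors, against 94.5 and 85.8 CPM in unirradiated tumors. Of the other base genes, the ubiquitin receptor gene Psmd4 had 109.7 and 118 CPM in the irradiated pair, against 114 and 100.9 CPM in the unirradiated pair. Psmd2, whose product is a docking subunit, was at 205 and 216 CPM in irradiated 1 and 2, against 204 and 207 CPM in unirradiated 1 and 2. These 4 genes overlapped between groups. In the lid, Psmd12 was at 99.7 and 89.7 CPM in irradiated tumors, against 100.2 and 103 CPM in unirradiated tumors, and irradiated 1 lay only just below. Psmd7, another lid gene, also lay below by little, at 114 and 112.6 CPM in irradiated 1 and 2, against 115.2 and 115.1 CPM in unirradiated 1 and 2. Psmd11 overlapped, at 73.1 and 79.4 CPM in the irradiated pair, against 80.3 and 77.7 CPM in the unirradiated pair. Psmd14, the lid deubiquitinase, was chosen after its values were seen as the widest split between the irradiated libraries among the tested members: 38.1 CPM in irradiated 1 and 62.6 CPM in irradiated 2, on either side of 51.8 and 48.8 CPM in the unirradiated libraries, with a group log2 fold change of 0.000251 (SE 0.247).

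Base assembly chaperones, which help to build the regulatory particle and then leave it, and the alternative activators complete the members. Psmd5 was at 40.6 and 44.8 CPM in irradiated libraries against 47.9 and 49.3 CPM in unirradiated ones, below in both, and had the smallest p of the constitutive genes (log2 fold change -0.19, SE 0.112; edgeR adjusted p of 0.688). Psmd10 was at 16.9 and 24.4 CPM in irradiated 1 and 2, against 22.9 and 21.5 CPM in unirradiated 1 and 2, and overlapped. Psme3, which encodes the nuclear activator, was at 89.8 and 91.8 CPM in irradiated tumors, against 79.9 and 84.5 CPM in unirradiated tumors, above in both (log2 fold change 0.14, SE 0.0989; edgeR adjusted p of 0.743). Psme4, which encodes a large single-chain activator, was at 94.1 and 94.5 CPM in the irradiated pair, against 103 and 105 CPM in the unirradiated pair, below in both (log2 fold change -0.15, SE 0.0959; edgeR adjusted p of 0.725). The testis-type alpha gene Psma8 and the thymus-type beta gene Psmb11 did not pass the filter on low counts: Psma8 had 0 and 4 counts in irradiated 1 and 2, against 0 and 0 in unirradiated 1 and 2, and Psmb11 had 0 and 4 counts in irradiated tumors, against 2 and 2 in unirradiated tumors. A count of 0 allows up to 3 counts, or 0.151 CPM in irradiated 1, and these limits cover counting error only.

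**Figure D4:**
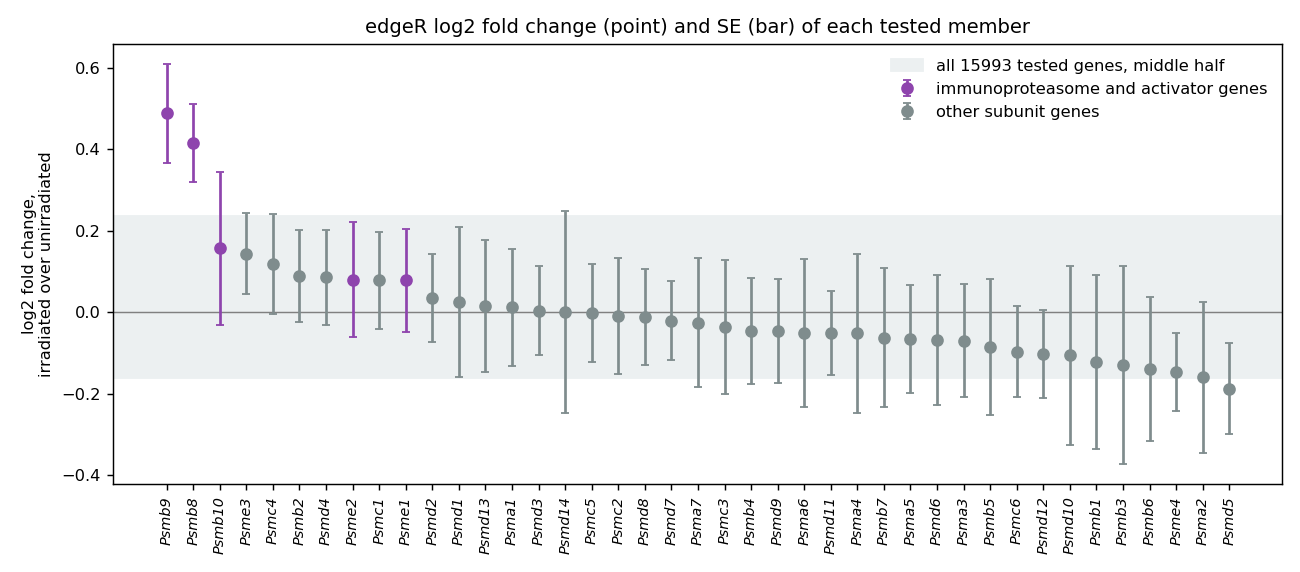
edgeR log2 fold change (irradiated over unirradiated, points) with its SE (bars) for the 41 tested members, in descending order; the shaded band holds the middle 50% of all 15993 tested genes. Psmb9 and Psmb8 lie above the band, at 0.49 and 0.42, Psmd5 lies below it, at -0.19, the other points are inside it, and no member passed the test.

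The fits with 1 irradiated library show how far the calls depend on it. Without irradiated 1, 4 members were called higher (Psmb8, Psmb9, Psmb10 and Psmd14) and 0 lower, against 15.9% and 7.95% of the genes tested in that fit. Without irradiated 2, 2 were called higher (Psmb8 and Psmb9) and 13 lower, against 11.9% and 13.9%. The 13 were Psma2, Psma4, Psma6, Psmb1, Psmb3, Psmb5, Psmb6, Psmb7, Psmc3, Psmd1, Psmd6, Psmd10 and Psmd14, of which 8 are core particle genes. Psmb8 had a log2 fold change of 0.40 without irradiated 1 and 0.40 without irradiated 2, and Psmb9 had 0.48 and 0.46. These fits take the spread from the unirradiated libraries alone and assume that the lone irradiated library varies like them, while the irradiated libraries differed more: the median absolute log2 difference over all tested genes was 0.33 between the irradiated libraries and 0.13 between the unirradiated ones.

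Gene length moved with the split. Over protein-coding genes at least as abundant as the least abundant tested member, the median log2 difference in irradiated 1 was -0.19 for 673 gene models under 2 kb, -0.0767 for 2078 of 2 to 4 kb, -0.000621 for 2949 of 4 to 8 kb and 0.0587 for 1555 over 8 kb. In irradiated 2 the same medians were 0.0618, -0.0218, -0.061 and -0.0663. Constitutive members had medians of -0.22 (9 genes under 2 kb), -0.20 (18 of 2 to 4 kb) and -0.15 (8 of 4 to 8 kb) in irradiated 1, and of 0.10, 0.14 and 0.0381 in irradiated 2. The 1 member over 8 kb, Psme4, was at -0.15 in irradiated 1 and -0.14 in irradiated 2. The gene models of Psmb5 and Psmb6 are 899 and 1872 bases long, shorter than those of Psmb8 and Psmb9 at 2736 and 3659. For Psmb10 and Psmb7 the order is reversed, at 1705 and 3421 bases. The part of length in the split and in the ratios of these genes was not tested.

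Blood cells express immunoproteasome genes without induction, and markers of other cell types differed between the libraries. Of 23 blood cell markers 17 were tested. Of those, 16 lay above in both irradiated libraries and 0 below, against 20.3% and 20.0% of all tested genes. Some of them, such as Cd2, Cd4, Cd8a and Itgam, had fewer than 10 counts in each unirradiated library. They passed the filter through the irradiated libraries alone, so the count above was partly fixed by the filter. The untested markers (Cd3e, Cd3d, Nkg7, Flt3, Xcr1 and Ly6g) overlapped between groups. All 23 together summed to 450.3 and 2018 CPM in irradiated 1 and 2 against 394 and 349 CPM in unirradiated 1 and 2, of which Cd14, which overlapped between groups, took 276 and 325 CPM in irradiated 1 and 2, against 335 and 304 CPM in unirradiated 1 and 2. Ptprc, the CD45 gene, was at 9.63 and 77.2 CPM in irradiated tumors, against 2.41 and 1.18 CPM in unirradiated tumors. Markers listed at 0 counts numbered 3 of 23 in irradiated 1 (Cd3d, Xcr1 and Ly6g), 0 in irradiated 2, 1 in unirradiated 1 (Ly6g) and 3 in unirradiated 2 (Cd3d, Itgam and Ly6g). The 9 endothelial markers summed to 53.6 and 800.1 CPM in the irradiated pair, against 34.9 and 30.8 CPM in the unirradiated pair, and the 10 fibroblast markers to 916 and 6181 CPM in irradiated 1 and 2, against 725 and 743 CPM in unirradiated 1 and 2. In log2 CPM, irradiated 1 minus irradiated 2 was -0.000524 for Psmb8 and -0.0214 for Psmb9. For Psmb10, Psme1 and Psme2 the same difference was -0.46, -0.18 and -0.30. The part of other cells in these results was not tested, and in bulk RNA fewer cells of a type and less RNA per cell cannot be told apart.

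**Figure D5:**
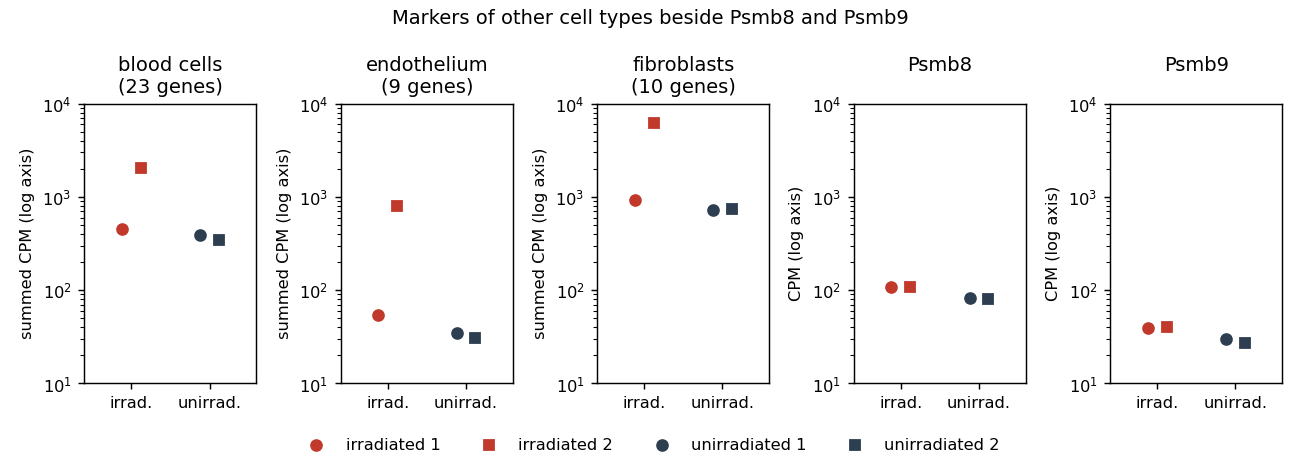
Summed CPM of blood cell, endothelial and fibroblast markers and CPM of Psmb8 and Psmb9 in each library, on a shared log axis. The marker sums are far higher in irradiated 2 than in irradiated 1 (2018 CPM in irradiated 2 and 450.3 CPM in irradiated 1 for blood cells). Psmb8 is at 109 CPM in both. Psmb10, Psme1 and Psme2, which are not drawn, were higher in irradiated 2 than in irradiated 1. The part of other cells in these levels was not tested.

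Genes of the interferon gamma axis, which turns on the immunoproteasome, were on a list of 11, of which 10 were tested. Of these, 6 lay above in both irradiated libraries and 1 below, against 20.3% and 20.0% of all tested genes, and 0 passed the test, with a median log2 fold change of 0.37 against 0.00396 over all tested genes. Socs1, a feedback inhibitor of JAK kinases, was at 14.7 and 17.3 CPM in irradiated libraries against 7.80 and 7.08 CPM in unirradiated ones. Nlrc5, the transactivator of class I genes, was at 90.4 and 60.8 CPM in irradiated tumors, against 36.8 and 45.0 CPM in unirradiated tumors. Both lay above in both irradiated libraries. Irf1, chosen after its values were seen because it acts on Psmb9, was at 671 and 574 CPM in irradiated 1 and 2, against 697 and 689 CPM in unirradiated 1 and 2, below in both. Ifng itself, made mainly by lymphocytes, had 6 and 99 counts in irradiated 1 and 2, against 2 and 2 in unirradiated 1 and 2, and did not pass the filter.

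Of 10 peptide loading genes tested, 5 are on chromosome 17, with Psmb8 and Psmb9. Over the 10, 4 lay above and 2 below, against 20.3% and 20.0% of all tested genes, with a median log2 fold change of 0.13. Tap1 was at 148 and 145 CPM in irradiated 1 and 2 against 109 and 106 CPM in unirradiated 1 and 2. Tap2, next to Psmb8, was at 115 and 109 CPM in irradiated tumors, against 96.1 and 93.5 CPM in unirradiated tumors. Every gene of the run Psmb9, Tap1, Psmb8 and Tap2 thus lay above in both irradiated libraries, with log2 fold changes of 0.49, 0.45, 0.42 and 0.24. Canx, which encodes a chaperone and lies elsewhere, was at 248 and 310.4 CPM in the irradiated pair, against 321 and 312 CPM in the unirradiated pair.

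Factors that build, regulate or serve the proteasome were measured from lists of 7 assembly factor, 15 partner and 4 regulator genes. Against shares of 20.3% above and 20.0% below over all tested genes, 2 of the 7 genes on the assembly factor list lay above (Psmg1 and Akirin2) and 1 below (Psmf1). That list is broad, since Psmf1 and Akirin2 are not assembly chaperones. Psmf1, which encodes a proteasome regulator, was at 24.4 and 28.3 CPM in irradiated 1 and 2, against 33.1 and 31.9 CPM in unirradiated 1 and 2. Akirin2, a nuclear import factor of proteasomes, was at 41.2 and 48.2 CPM in irradiated 1 and 2, against 39.9 and 36.9 CPM in unirradiated 1 and 2. The assembly chaperone Psmg2 was at 15.8 and 14.7 CPM in irradiated tumors, against 15.8 and 18.2 CPM in unirradiated tumors. Of 15 partner genes, 1 lay above and 4 below, and 13 had a negative log2 fold change (median -0.0743), against 7909 of 15993 over all tested genes. Adrm1, a ubiquitin receptor of the regulatory particle, was found at 145 and 129 CPM in the irradiated pair, against 118 and 117 CPM in the unirradiated pair. Of the shuttle factor genes, Ubqln2 had 44.0 and 58.6 CPM in irradiated 1 and 2, against 60.8 and 61.1 CPM in unirradiated 1 and 2, and Ubqln4 had 124 and 113 CPM in irradiated tumors, against 128 and 131 CPM in unirradiated tumors. Among 4 regulators of proteasome gene expression, 1 above and 2 below, Nfe2l2, which encodes an antioxidant transcription factor, was at 90.0 and 99.95 CPM in the irradiated pair, against 77.8 and 76.1 CPM in the unirradiated pair, above in both. Ddi2, a protease that activates Nfe2l1, was at 81.1 and 94.4 CPM in irradiated 1 and 2, against 100.1 and 105 CPM in unirradiated 1 and 2, below in both, and Ngly1, which also acts on Nfe2l1, was at 21.8 and 27.6 CPM in irradiated tumors, against 28.0 and 26.4 CPM in unirradiated tumors. None of these genes passed the edgeR test. Dll1, the gene read by the mCherry sort, had 146 and 80.2 CPM in irradiated 1 and 2, against 130.1 and 129 CPM in unirradiated 1 and 2.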

How the data were processed

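Poly(A) RNA of 4 libraries, 2 per group, was sequenced with a kit that keeps no strand, per the labels' protocols. The authors deposited raw counts per gene; STAR 2.5, HTSeq 0.6.1, DESeq2 and mm10 are named in the submitters' processing notes, and no annotation release or counting option is named. Gene length in bases, a deposited column of another kind, was used for TPM. The 3 single tables matched the joint table at all 54532 genes.

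Counts were tested with edgeR 4.0.16 in R 4.3.3: filterByExpr (minimum count 10, total 15), TMM, a two-sided quasi-likelihood test and Benjamini-Hochberg adjustment over all 15993 genes, threshold 0.05. The SE is the absolute log2 fold change over the root of the F statistic. Log2 CPM used a prior count of 2; CPM is TMM-normalized. The step was tested on simulated data whose changes were larger than those of the members here. That check therefore does not cover differences of the size described. A gene is called above when its lower irradiated library exceeds its higher unirradiated one, and below when the reverse holds. SDs are over 2 libraries.

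Members, lists and the naming rule (the inducible genes and their counterparts, then the 2 smallest p per subunit group and 3 per further list) were chosen with earlier results of these data known; a gene that the rule would name is not reported here. Alternatives were other scalings (DESeq2 size factors, upper quartile, library size), the table unfiltered, a floor of CPM over 1 in at least 2 libraries, a replicate block, DESeq2 1.42.0, limma-voom (limma 3.58.1), a robust fit, a threshold of 0.1 and each library left out. Exon overlaps and shared 50-base words came from GENCODE M21 (GRCm38), where 41 of 43 members had the deposited position.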

Additional observations from a re-analysis of the deposited data

How the results depend on the processing

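The number of members called was 0 under each of the 10 alternatives that keep all 4 libraries, and between 0 and 15 when a library was left out (4 without irradiated 1, 15 without irradiated 2, 0 without either unirradiated library). Over all genes the count of 0 became 1443 with no filter, 500 by DESeq2 and 2 with the replicate block, and lay between 0 and 4377 when a library was left out. The replicate numbers are not stated to mark a pairing; deviations of same-numbered libraries correlated at -0.0992 over 15993 genes, and the block changed no call of a member. The median log2 fold change ranged from -0.0277 to 0.35 for the 5 immunoproteasome genes and from -0.21 to 0.11 for the constitutive ones when a library was left out. Of the 22 members named by rule and tested, 13 changed sign when a library was left out and 0 under the other alternatives. Their leave-one-out log2 ranges were -0.11 to 0.35 for Psmb10, -0.0277 to 0.16 for Psme1, -0.0912 to 0.20 for Psme2, -0.31 to 0.0779 for Psmb5, -0.40 to 0.058 for Psmb6, -0.30 to 0.12 for Psmb7, -0.44 to 0.0526 for Psma2, -0.21 to 0.0297 for Psma3, -0.45 to 0.12 for Psmb1, -0.41 to 0.12 for Psmd10, -0.0132 to 0.21 for Psmc4, -0.0122 to 0.17 for Psmd4 and -0.014 to 0.0545 for Psmd2. Psmb8 stayed between 0.40 and 0.42 and Psmb9 between 0.41 and 0.55 under every alternative run. Under scalings added after seeing the data, 2 of the 5 immunoproteasome genes lay above in each. The number of constitutive genes below was 2 of 36 with DESeq2 size factors against 4 of 36 with TMM. Over all tested genes, 20.3% lay above and 20.0% below with TMM, and the shares under the other scalings are not given here. The causes were not tested. The lowest count of a tested member in any library was 335, for Psmd10 in irradiated 1; the effect of depth was not tested.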
